A study of Mus musculus with 8 samples.

Results

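The nuclear-encoded genes of complexes II, III, IV and V of the oxidative phosphorylation system were taken by name from the count table, as every symbol that starts with Sdh, Uqcr, Uqcc, Cox followed by a digit, Cyc1 or Atp5. This gave 60 of the 12171 genes in the table, and 1 pseudogene with a matching name was left out. Of the 60 genes, 43 encode subunits of the complexes and 17 encode assembly or related factors. By complex, 8 belong to complex II, 12 to complex III, 24 to complex IV and 16 to complex V. RNA came from the quadriceps (QUAD) of 4 D-gal + MSCs mice and 4 D-gal + PBS mice, with 1 library per mouse. All were male C57BL/6J mice, bought at 6 weeks of age, and all received subcutaneous D-gal, a sugar used to induce features of ageing, at 100 mg/kg per day for 12 weeks after 1 week of acclimatisation. D-gal + MSCs mice had 1000000 human umbilical cord mesenchymal stromal cells (MSCs) injected into the QUAD and other hind limb muscles at each of 6 injections, 7 days apart. D-gal + PBS mice were injected with the same volume of PBS without cells. The comparison asks how the RNA of these complexes differs in D-gal-exposed muscle with and without MSCs, and no mouse without D-gal was analysed here.

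Complex II oxidises succinate to fumarate and passes the electrons to ubiquinone, complex III passes them on to cytochrome c, and complex IV reduces oxygen to water. Complexes III and IV pump protons across the inner mitochondrial membrane, and complex V uses the gradient to make ATP. Complex II is encoded by nuclear genes alone, while complexes III, IV and V also hold subunits encoded by mitochondrial DNA (mtDNA). Oxidative muscle fibres are rich in these complexes, and several complex IV subunits have a form typical of heart and skeletal muscle beside a ubiquitous one.

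Total counts were 32772221 to 40057968 in D-gal + MSCs mice and 34912348 to 39356399 in D-gal + PBS mice, and the lowest count of any of the 60 genes in any library was 116, for Cox4i2. Levels are counts per 1000000 (CPM) of the library after scaling by TMM factors, which correct for composition. The factors were 0.76 to 1.14, lowest in D-gal + MSCs replicate 4 and highest in D-gal + PBS replicate 2. Mitochondrially encoded genes made up 22.6% to 36.6% of the counts of D-gal + MSCs mice and 13.9% to 18.6% of those of D-gal + PBS mice. The 60 nuclear genes made up 1.56% to 2.17% in D-gal + MSCs mice and 1.53% to 1.94% in D-gal + PBS mice. The labelled tissue carried its defining RNAs, with Acta1, the skeletal muscle actin, at 32190 ± 4020 CPM in D-gal + MSCs mice and 37160 ± 6178 CPM in D-gal + PBS mice (SD, n = 4 each). An exon of 20 of the 60 genes overlaps another annotated gene, on the opposite strand in 17 of them, and the strand setting of the counting is not given in the sources used here. The partner is itself in the table for 11 of the 20, such as Hnrnpu for Cox20, Gabpa for Atp5j and Emc8 for Cox4i1, so reads of these pairs may not be told apart. Many of these genes also have near-identical processed pseudogenes, and how reads shared with them were counted is likewise not given.

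Most of the 60 genes had somewhat more RNA on average in D-gal + MSCs mice, but no single gene passed the test across all genes. The log2 fold change, D-gal + MSCs over D-gal + PBS, was positive in 54 of 60 genes (90%), where 49.5% of all genes had a positive value. The median was 0.25 over the 60 genes and -0.003 over all genes. All 43 subunit genes had a positive value, from 0.03 for Atp5g2 to 0.65 for Uqcrq, with a median of 0.35. The 17 assembly and related genes had a median of 0.14, and 11 of them were positive. At an adjusted p under 0.05, edgeR called 0 of the 60 genes and 0% of all genes, limma-voom also called 0 of the 60, and DESeq2 called 0 of the 60 where it called 2.52% of all genes. At an unadjusted p under 0.05, 2 of the 60 (3.33%) passed in edgeR, against 10.7% of all genes, 2 (3.33%) in limma-voom, against 10.9%, and 7 (11.7%) in DESeq2, against 12.2%.

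At a p under 0.05 and a log2 fold change of at least 0.5, the thresholds used below for a description, 2 of the 60 genes were higher in D-gal + MSCs mice, Sdhb and Uqcrq. This is 3.33% of them, against 3.76% of all genes, and so is near the background. In the other direction 0 of the 60 passed, against 3.06% of all genes. The count of 2 rests on single libraries. It became 10 (16.7%, against 3.65% of all genes) when D-gal + MSCs replicate 1 was left out, 7 (11.7%, against 4.76%) when D-gal + MSCs replicate 2 was, and 7 (11.7%, against 3.59%) when D-gal + PBS replicate 4 was. It became 1 when D-gal + PBS replicate 3 was left out, and this gene was Cox4i2 (log2 fold change 0.55), neither Sdhb nor Uqcrq. The count became 0 on leaving out any of D-gal + MSCs replicate 3, D-gal + MSCs replicate 4, D-gal + PBS replicate 1 and D-gal + PBS replicate 2. In the fits with a count of 1 or 0, 2.79% to 3.98% of all genes passed. The median of 0.25 became 0.09 when D-gal + MSCs replicate 4 was left out, 0.38 when D-gal + MSCs replicate 1 was, and 0.41 when D-gal + PBS replicate 4 was. With D-gal + MSCs replicate 4 and D-gal + PBS replicate 2 left out together it was 0.01, with 31 of the 60 positive (51.7%, against 49.4% of all genes) and 0 called, against 2.55% of all genes. These are the highest and the lowest mouse in most of the 60 genes, as given below. Leaving out such a pair shrinks the difference by construction. Scaled by library totals alone, the median over all genes was -0.19, that of the 60 genes 0.05, and 39 of the 60 were positive (65%), against 23.4% of all genes. A change of scaling shifts all genes by nearly the same amount. The place of the 60 genes relative to the median of all genes could therefore hardly change, and it is no check of the result.

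**Figure D1:**
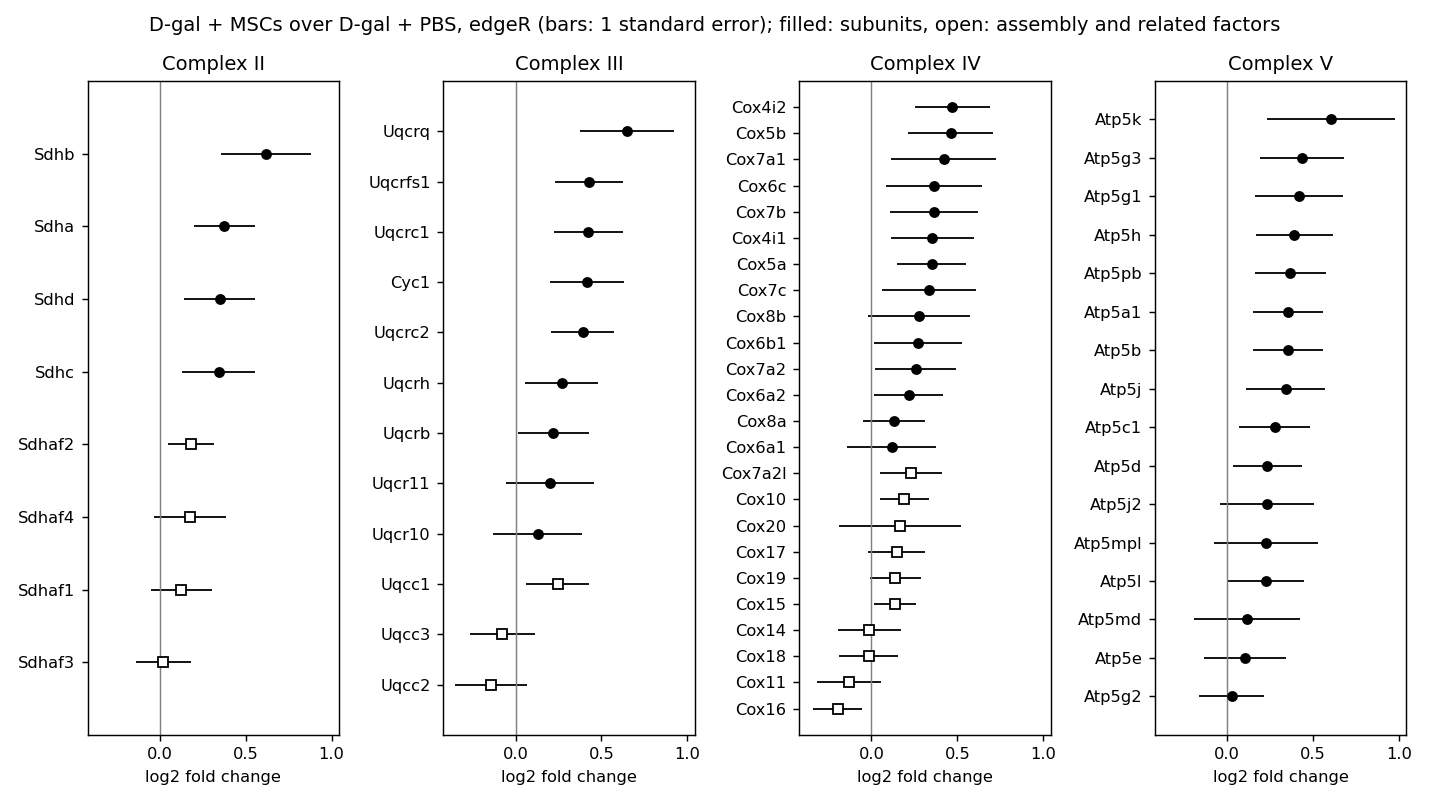
Log2 fold change of each of the 60 genes (D-gal + MSCs over D-gal + PBS, edgeR) with bars of 1 standard error, by complex. Filled circles are subunits, all 43 right of 0, and open squares are assembly and related factors, 11 of 17 right of 0.

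The groups overlapped in every one of the 60 genes. All 4 D-gal + MSCs mice lay above all 4 D-gal + PBS mice in 0 of the 60, against 3.09% of all genes, and below them in 0 of the 60, against 3.19% of all genes. The difference in averages was carried by some of the mice. D-gal + MSCs replicate 4 had the highest level of the 8 mice in 45 of the 60 genes (75%), where it was highest in 18.6% of all genes. D-gal + PBS replicate 2 had the lowest level in 43 of the 60 genes (71.7%), where it was lowest in 11.3% of all genes. These mice also had the lowest and the highest TMM factor, 0.76 and 1.14. The ranks of the mice were not examined under library totals alone. As a share of unscaled counts, the 60 genes made up 2.17% in D-gal + MSCs replicate 4 and 2.13% in D-gal + MSCs replicate 3. They made up 1.53% in D-gal + PBS replicate 2 and 1.56% in D-gal + MSCs replicate 1. D-gal + MSCs replicate 4 lay above every D-gal + PBS mouse in 52 genes and D-gal + MSCs replicate 3 in 39. D-gal + MSCs replicate 1 lay inside the range of the D-gal + PBS mice in 48 genes and below it in 11, and D-gal + MSCs replicate 2 lay inside it in 52. In 37 genes exactly 2 of the 4 D-gal + MSCs mice exceeded all D-gal + PBS mice. For these counts of genes above, inside or below the D-gal + PBS range, no share over all genes was worked out. How unusual they are is therefore not known. The score of the 60 genes in a mouse, their mean log2 CPM relative to the mean of the 8 mice, was -0.26, -0.15, 0.30 and 0.57 in D-gal + MSCs replicates 1 to 4, and -0.06, -0.36, -0.26 and 0.23 in D-gal + PBS replicates 1 to 4. D-gal + PBS replicate 4 was thus above D-gal + MSCs replicates 1 and 2. The groups are described here by their ranges, and no test was made of the score.

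In complex II the 4 subunits had positive log2 fold changes of 0.34 to 0.62. Sdhb, the iron-sulphur subunit, had 343, 362, 503 and 782 CPM in D-gal + MSCs mice, against 342, 245, 301 and 407 CPM in D-gal + PBS mice (replicates 1 to 4 in each group, an order kept for every such list). D-gal + MSCs replicates 3 and 4 were above every D-gal + PBS mouse, and the other two lay within their range. The log2 fold change of Sdhb was 0.62 (adjusted p = 0.431 in edgeR, standard error 0.26). Sdha, the flavoprotein that oxidises succinate, had 663, 739, 752 and 1093 CPM in D-gal + MSCs mice, against 593, 554, 618 and 736 CPM in D-gal + PBS mice. D-gal + MSCs replicates 2, 3 and 4 were above every D-gal + PBS mouse, replicate 2 by little, and replicate 1 lay within their range. The log2 fold change of Sdha was 0.38 (adjusted p = 0.48 in edgeR, standard error 0.18). Sdhc and Sdhd anchor the enzyme in the membrane and help bind ubiquinone. Sdhc had 316 ± 105 CPM in D-gal + MSCs mice and 249.6 ± 30.6 CPM in D-gal + PBS mice (SD, n = 4 each), with a log2 fold change of 0.34 (standard error 0.21). Sdhd had 335 ± 100.3 CPM in D-gal + MSCs mice and 263 ± 46.3 CPM in D-gal + PBS mice (SD, n = 4 each), with a log2 fold change of 0.35 (standard error 0.20).

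The factors that assemble complex II had smaller values, from 0.02 to 0.18. Sdhaf2, which helps attach the flavin to Sdha, had 0.18 (standard error 0.13) and Sdhaf4, a chaperone of the flavinated Sdha, 0.18 (standard error 0.21). Sdhaf1 and Sdhaf3 help to mature the iron-sulphur subunit. The log2 fold change of Sdhaf1 was 0.13 (standard error 0.18) and that of Sdhaf3 0.02 (standard error 0.16). Sdhaf3 had 19.3, 16.1, 16.1 and 21.9 CPM in D-gal + MSCs mice, against 16.5, 15.9, 16.9 and 23.1 CPM in D-gal + PBS mice, so that both the highest and the lowest of the 8 mice were D-gal + PBS mice. Its value was negative under library totals, at -0.16, and when any of D-gal + MSCs replicates 1 and 4 and D-gal + PBS replicates 1, 2 and 3 was left out, with the lowest of these, -0.07, for D-gal + MSCs replicate 4.

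The promoters of Sdhb and Sdha are shown because these are among the 3 genes with the smallest p that have a promoter in the RefSeq table used, which is of build GRCm38.p6 and not of the GRCm39 build the reads were aligned to. Each covers 250 bases before to 50 after the gene start, 5′ to 3′ on the gene's strand, in lower case with any match to the core of an NRF1 binding motif (GCATGCGC) in capitals. The positions are chr4:140961021-140961320, plus strand, for Sdhb and chr13:74350191-74350490, minus strand, for Sdha. The Sdhb promoter holds 1 match, which starts 54 bases before the gene start, and the Sdha promoter holds none of the motifs searched.
Sdhb: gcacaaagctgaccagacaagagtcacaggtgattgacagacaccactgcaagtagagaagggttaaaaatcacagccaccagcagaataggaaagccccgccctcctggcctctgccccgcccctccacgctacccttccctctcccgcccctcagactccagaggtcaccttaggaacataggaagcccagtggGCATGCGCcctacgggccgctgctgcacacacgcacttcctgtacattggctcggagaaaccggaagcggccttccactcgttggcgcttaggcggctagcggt
Sdha: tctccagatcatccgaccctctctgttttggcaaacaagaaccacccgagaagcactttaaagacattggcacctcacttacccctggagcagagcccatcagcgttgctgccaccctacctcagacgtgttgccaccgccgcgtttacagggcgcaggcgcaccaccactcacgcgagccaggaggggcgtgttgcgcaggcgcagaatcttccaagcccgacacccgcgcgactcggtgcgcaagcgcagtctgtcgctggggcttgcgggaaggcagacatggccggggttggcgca

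**Figure D2:**
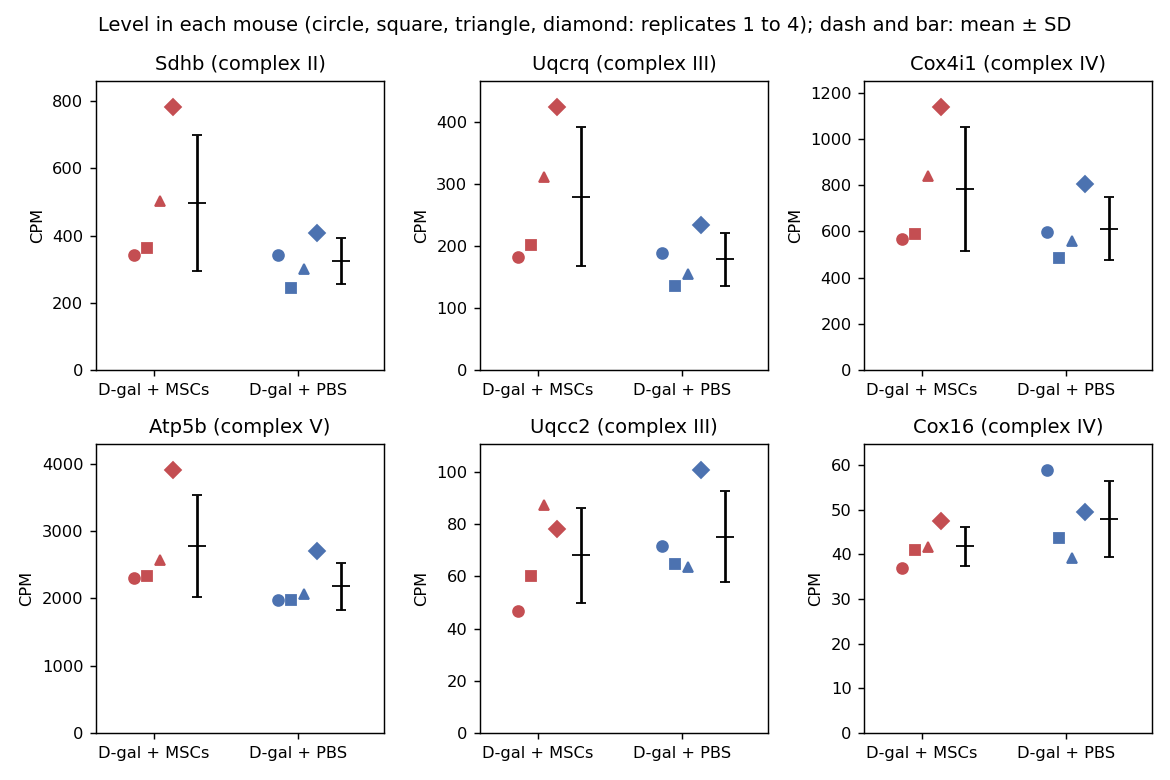
CPM of 6 genes in each mouse, D-gal + MSCs left and D-gal + PBS right, with the mean and SD of 4 mice beside the points. In Sdhb, Uqcrq and Cox4i1, D-gal + MSCs replicates 3 and 4 (triangle and diamond) lie above all D-gal + PBS mice, whereas in the assembly factors Uqcc2 and Cox16 the highest mouse is a D-gal + PBS one.

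In complex III all 9 subunits had positive log2 fold changes, from 0.13 to 0.65. Uqcrq, a small subunit bound to cytochrome b, had 182, 202, 312 and 424 CPM in D-gal + MSCs mice, against 189, 136, 156 and 234 CPM in D-gal + PBS mice. As for Sdhb, D-gal + MSCs replicates 3 and 4 were above all D-gal + PBS mice while the other two lay among them. The log2 fold change of Uqcrq was 0.65 (adjusted p = 0.428 in edgeR, standard error 0.27). Uqcrfs1, the Rieske iron-sulphur protein, had 591, 577, 692 and 989 CPM in D-gal + MSCs mice, against 542, 418, 522 and 637 CPM in D-gal + PBS mice. Here too D-gal + MSCs replicates 3 and 4 stood above every D-gal + PBS mouse. Its log2 fold change was 0.43 (adjusted p = 0.476 in edgeR, standard error 0.20). Uqcrc2, a core subunit, had 409.8, 446, 488 and 706 CPM in D-gal + MSCs mice, against 378, 335, 400.3 and 450.4 CPM in D-gal + PBS mice, and its log2 fold change was 0.39 (adjusted p = 0.479 in edgeR, standard error 0.18). Cyc1, cytochrome c1, which hands electrons to cytochrome c, had 444 ± 142 CPM in D-gal + MSCs mice and 332 ± 58.4 CPM in D-gal + PBS mice (SD, n = 4 each), with a log2 fold change of 0.42 (standard error 0.21). The other core subunit, Uqcrc1, had 0.42 (standard error 0.20). The remaining small subunits had lower values, 0.27 (standard error 0.21) for the hinge protein Uqcrh, 0.22 (standard error 0.21) for Uqcrb, 0.20 (standard error 0.26) for Uqcr11 and 0.13 (standard error 0.26) for Uqcr10.

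The 3 assembly factors of complex III, which act on the mtDNA-encoded cytochrome b, had a median of -0.08 and did not share a direction. Their log2 fold changes were 0.25 (standard error 0.18) for Uqcc1, -0.08 (standard error 0.19) for Uqcc3 and -0.14 (standard error 0.21) for Uqcc2. Uqcc2 had 46.7, 60.2, 87.3 and 78.2 CPM in D-gal + MSCs mice, against 71.5, 64.9, 63.6 and 101 CPM in D-gal + PBS mice. D-gal + MSCs replicates 1 and 2 were the lowest of the 8 mice and D-gal + PBS replicate 4 the highest, and without that mouse the value of Uqcc2 was 0.03. The promoter of Uqcrfs1, the remaining gene of the 3 chosen for the smallest p, is at chr13:30545267-30545566, minus strand (GRCm38.p6), and it holds none of the motifs searched.
Uqcrfs1: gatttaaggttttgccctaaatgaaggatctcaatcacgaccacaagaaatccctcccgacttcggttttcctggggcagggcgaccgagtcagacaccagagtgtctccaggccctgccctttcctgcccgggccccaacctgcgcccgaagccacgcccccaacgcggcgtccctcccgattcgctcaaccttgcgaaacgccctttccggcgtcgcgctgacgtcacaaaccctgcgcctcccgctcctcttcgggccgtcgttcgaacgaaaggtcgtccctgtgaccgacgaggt

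Complex IV had the largest number of genes, and its 14 subunits all had positive log2 fold changes, from 0.12 to 0.47, with a median of 0.34. None of the 14 passed p under 0.05 in edgeR, against 10.7% of all genes. DESeq2 had Cox4i2 alone of them at an unadjusted p under 0.05, against 12.2% of all genes. With 14 genes, such counts are near the background. Cox4i1, the ubiquitous form of a regulatory subunit, had 566, 587, 842 and 1137 CPM in D-gal + MSCs mice, against 597, 487, 559 and 806 CPM in D-gal + PBS mice. D-gal + MSCs replicates 3 and 4 were above the D-gal + PBS mice, and replicates 1 and 2 were below D-gal + PBS replicate 1. Its log2 fold change was 0.36 (standard error 0.24). Cox4i2, the form of the same subunit best known from lung and from low oxygen, had only 4.29, 4.11, 6.04 and 5.55 CPM in D-gal + MSCs mice, against 3.47, 3.74, 4.13 and 3.08 CPM in D-gal + PBS mice. All but 1 D-gal + MSCs mouse, replicate 2, were above the highest D-gal + PBS mouse, and the log2 fold change of Cox4i2 was 0.47 (adjusted p = 0.478 in edgeR, standard error 0.22). Per length, Cox4i1 stood at 1024 CPM per kb in D-gal + MSCs mice and 800.2 CPM per kb in D-gal + PBS mice, and Cox4i2 at 6.82 CPM per kb in D-gal + MSCs mice and 4.92 CPM per kb in D-gal + PBS mice. The nuclear subunits Cox5a and Cox5b, which sit on the matrix side, had log2 fold changes of 0.35 (standard error 0.20) and 0.46 (standard error 0.25). Cox6b1, on the intermembrane side, had 0.27 (standard error 0.26), Cox6c 0.36 (standard error 0.28), Cox7b 0.36 (standard error 0.25) and Cox7c 0.34 (standard error 0.27).

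The muscle forms of 3 complex IV subunits were set against their ubiquitous partners within each mouse, as a log2 ratio of counts that does not depend on library scaling. Cox6a2 over Cox6a1 was 4.78, 4.84, 4.12 and 4.96 in D-gal + MSCs mice, against 4.79, 4.05, 4.54 and 4.64 in D-gal + PBS mice. The means were 4.67 ± 0.38 in D-gal + MSCs mice and 4.51 ± 0.32 in D-gal + PBS mice, a difference of 0.17 (SD, n = 4 each, two-sided exact permutation test, p = 0.486). Cox7a1 over Cox7a2 averaged -1.01 ± 0.19 in D-gal + MSCs mice and -1.15 ± 0.14 in D-gal + PBS mice, a difference of 0.14 (SD, n = 4 each, exact permutation p = 0.314). Cox8b over Cox8a averaged 1.77 ± 0.25 in D-gal + MSCs mice and 1.64 ± 0.35 in D-gal + PBS mice, a difference of 0.13 (SD, n = 4 each, exact permutation p = 0.543). Adjusted over the 3 pairs each p was 0.543, and the smallest p this design allows is 0.0286. The difference was smaller than the SD of either group for Cox6a2 over Cox6a1 and for Cox8b over Cox8a, and about as large as that of D-gal + PBS mice for Cox7a1 over Cox7a2. A p that misses the threshold does not show that the ratios were equal. The difference for Cox8b over Cox8a was -0.0014 without D-gal + PBS replicate 2, and with D-gal + MSCs replicate 4 also left out the differences were -0.11 for this pair and -0.08 for Cox6a2 over Cox6a1.

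**Figure D3:**
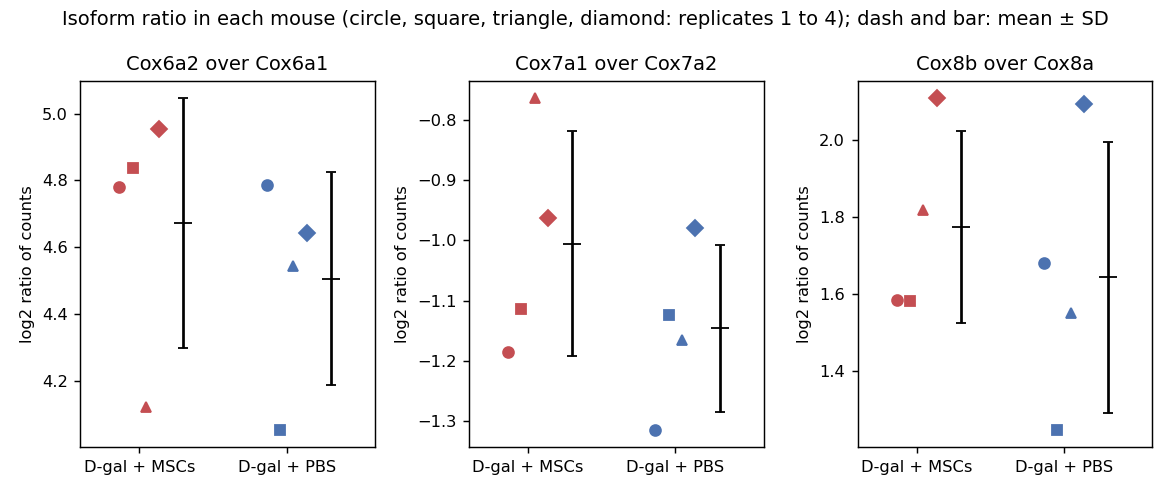
Log2 ratio of the counts of the muscle form over the ubiquitous form of 3 complex IV subunits in each mouse, D-gal + MSCs left and D-gal + PBS right, with mean and SD of 4 mice. The groups overlap in all 3 ratios; the mean differences are 0.17, 0.14 and 0.13.

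The levels of the same genes, taken singly, varied between mice in both groups. Cox7a1, the muscle form, had 59.0, 66.6, 119 and 136 CPM in D-gal + MSCs mice, against 67.2, 55.4, 58.9 and 103 CPM in D-gal + PBS mice, and a log2 fold change of 0.42 (standard error 0.30). Cox7a2 had 186 ± 60.6 CPM in D-gal + MSCs mice and 156 ± 37.3 CPM in D-gal + PBS mice (SD, n = 4 each), with a log2 fold change of 0.26 (standard error 0.24). The count ratios above are not corrected for length. Per length, Cox7a1 stood at 242 CPM per kb in D-gal + MSCs mice and 181 CPM per kb in D-gal + PBS mice. Cox7a2 stood at 283 CPM per kb in D-gal + MSCs mice and 236 CPM per kb in D-gal + PBS mice. Cox6a2, by far the main form per length here, stood at 952 CPM per kb in D-gal + MSCs mice and 819 CPM per kb in D-gal + PBS mice, against which Cox6a1 had 46.3 CPM per kb in D-gal + MSCs mice and 42.6 CPM per kb in D-gal + PBS mice. Their log2 fold changes were 0.22 (standard error 0.20) for Cox6a2 and 0.12 (standard error 0.26) for Cox6a1. Cox6a1 had 16.9, 18.8, 43.0 and 27.0 CPM in D-gal + MSCs mice, against 22.6, 26.9, 23.4 and 24.5 CPM in D-gal + PBS mice. Its D-gal + MSCs values spread from the lowest to the highest of the 8 mice, and without D-gal + MSCs replicate 3 its log2 fold change was -0.22. Cox8b had 0.28 (standard error 0.30) and Cox8a 0.13 (standard error 0.18), and the value of Cox8a turned to -0.06 under library totals and to -0.03 without D-gal + MSCs replicate 3.

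The 10 assembly and related factors of complex IV lay between -0.20 and 0.23, with a median of 0.14, and 6 of them were positive. Cox7a2l, which links complexes III and IV into supercomplexes, had 0.23 (standard error 0.18). Cox10 and Cox15, which make the haem A of the enzyme, had 0.19 (standard error 0.14) and 0.14 (standard error 0.12). Of the copper carriers, Cox17 had 0.15 (standard error 0.17), Cox19 0.14 (standard error 0.15) and Cox11 -0.13 (standard error 0.19). Cox14, Cox16, Cox18 and Cox20 help to build in the mtDNA-encoded core subunits. Cox20 had 0.17 (standard error 0.35), Cox14 -0.01 (standard error 0.19), Cox18 -0.02 (standard error 0.17) and Cox16, the lowest of all 60 genes, -0.20 (standard error 0.14). Cox16 had 36.9, 40.9, 41.7 and 47.6 CPM in D-gal + MSCs mice, against 58.9, 43.6, 39.2 and 49.6 CPM in D-gal + PBS mice. The 2 highest mice were D-gal + PBS replicates 1 and 4, and the groups overlapped. Cox16 shares exon sequence with another gene in the table, Gm20498, on the same strand, so its counts are uncertain.

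Complex V, the ATP synthase, had 16 subunit genes with positive log2 fold changes from 0.03 to 0.60 and a median of 0.31. None passed p under 0.05 in edgeR, against 10.7% of all genes. Atp5b, the catalytic beta subunit, had 2308, 2336, 2571 and 3910 CPM in D-gal + MSCs mice, against 1983, 1971, 2063 and 2702 CPM in D-gal + PBS mice. D-gal + PBS replicates 1, 2 and 3 lay close together and below every D-gal + MSCs mouse, while D-gal + PBS replicate 4 was above D-gal + MSCs replicates 1, 2 and 3. The log2 fold change of Atp5b was 0.35 (adjusted p = 0.564 in edgeR, standard error 0.20). Atp5a1, the alpha subunit, had 1817, 1946, 2169 and 3216 CPM in D-gal + MSCs mice, against 1715, 1531, 1740 and 2161 CPM in D-gal + PBS mice, with a log2 fold change of 0.36 (standard error 0.20). Per length these were among the most abundant of the genes, Atp5b at 1452 CPM per kb in D-gal + MSCs mice and 1138 CPM per kb in D-gal + PBS mice and Atp5a1 at 926 CPM per kb in D-gal + MSCs mice and 723 CPM per kb in D-gal + PBS mice. Atp5c1, the gamma subunit of the turning stalk, had 752 ± 228 CPM in D-gal + MSCs mice and 621 ± 91.5 CPM in D-gal + PBS mice (SD, n = 4 each), with a log2 fold change of 0.28 (standard error 0.21), and the delta and epsilon subunits Atp5d and Atp5e had 0.23 (standard error 0.20) and 0.10 (standard error 0.24).

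The c-ring, through which protons pass, is built from 3 genes that encode the same mature peptide. Atp5g3 had 575, 587, 893 and 1195 CPM in D-gal + MSCs mice, against 624, 465, 559 and 757 CPM in D-gal + PBS mice, and Atp5g1 had 440.1 ± 168 CPM in D-gal + MSCs mice and 329.8 ± 68.0 CPM in D-gal + PBS mice (SD, n = 4 each). In Atp5g3, D-gal + MSCs replicates 3 and 4 were the 2 highest mice and D-gal + PBS replicate 2 the lowest. The log2 fold changes were 0.44 (standard error 0.25) for Atp5g3, 0.42 (standard error 0.26) for Atp5g1 and 0.03 (standard error 0.19) for Atp5g2. The value of Atp5g2 changed sign under library totals, at -0.17, and without D-gal + MSCs replicate 4, at -0.12. Atp5k, the membrane subunit e, which takes part in dimer formation, had the highest value of the complex and also the widest spread. It had 17.3, 19.0, 46.9 and 43.1 CPM in D-gal + MSCs mice, against 24.5, 15.3, 15.5 and 27.8 CPM in D-gal + PBS mice, and its log2 fold change was 0.60 (adjusted p = 0.604 in edgeR, standard error 0.37). The D-gal + MSCs mice fell into a low pair, inside the D-gal + PBS range, and a high pair above it. Of the stator subunits, Atp5pb had 0.37 (standard error 0.21), Atp5h 0.39 (standard error 0.23) and Atp5j 0.34 (standard error 0.23). The small membrane subunits Atp5j2, Atp5l, Atp5mpl and Atp5md lay between 0.11 and 0.23.

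The scores of the subunit genes had a wider range over the mice than those of the assembly factors, a difference that was not tested. The score of the 43 subunit genes was -0.27, -0.18, 0.36 and 0.66 in D-gal + MSCs mice, against -0.08, -0.42, -0.29 and 0.21 in D-gal + PBS mice. That of the 17 assembly and related genes was -0.24, -0.08, 0.14 and 0.32 in D-gal + MSCs mice, against 0.003, -0.21, -0.21 and 0.27 in D-gal + PBS mice. Within a mouse, the subunit score minus the assembly score was -0.02, -0.10, 0.22 and 0.34 in D-gal + MSCs mice, against -0.09, -0.21, -0.08 and -0.06 in D-gal + PBS mice. D-gal + MSCs replicates 3 and 4 were the only mice with a positive difference, and D-gal + MSCs replicate 2 lay among the D-gal + PBS mice. A list of 30 measured factors known to act on these complexes but with other names had a median log2 fold change of 0.16, with 25 positive and 0 past the thresholds in either direction.

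Complexes III, IV and V hold 6 subunits encoded by mtDNA. In D-gal + MSCs mice all 6 were higher at p under 0.05 and a log2 fold change of at least 0.5, against 3.76% of all genes. At an adjusted p under 0.05, 0 passed in edgeR, against 0% of all genes, and 5 in DESeq2, against 2.52%. In 5 of the 6 all D-gal + MSCs mice were above all D-gal + PBS mice, against 3.09% of all genes. In mt-Co3 the groups overlapped. Over all 13 protein genes of mtDNA, which include 7 of complex I, the median log2 fold change was 1.08. In complex III, mt-Cytb had a log2 fold change of 1.09, against a median of 0.39 for the 9 nuclear subunits. In complex IV the median was 0.89 for 3 mtDNA genes, against 0.34 for 14 nuclear ones, and in complex V it was 1.14 for 2 mtDNA genes, against 0.31 for 16 nuclear ones. The score of the mtDNA subunits minus that of the nuclear subunits in the same mouse does not depend on library scaling. In complex III it was 0.54, 0.28, 0.09 and 0.54 in D-gal + MSCs mice, against -0.24, -0.38, -0.24 and -0.58 in D-gal + PBS mice. In complex IV it was 0.50, 0.24, -0.14 and 0.52 in D-gal + MSCs mice, against -0.14, -0.45, -0.23 and -0.30 in D-gal + PBS mice. In complex V it was 0.72, 0.38, -0.03 and 0.58 in D-gal + MSCs mice, against -0.35, -0.51, -0.14 and -0.66 in D-gal + PBS mice. The groups did not overlap in complexes III and V, and in complex IV they met, with D-gal + MSCs replicate 3 at -0.142 and D-gal + PBS replicate 1 at -0.144. D-gal + MSCs replicate 1, among the lowest mice for nuclear subunits, was among the highest for this difference.

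**Figure D4:**
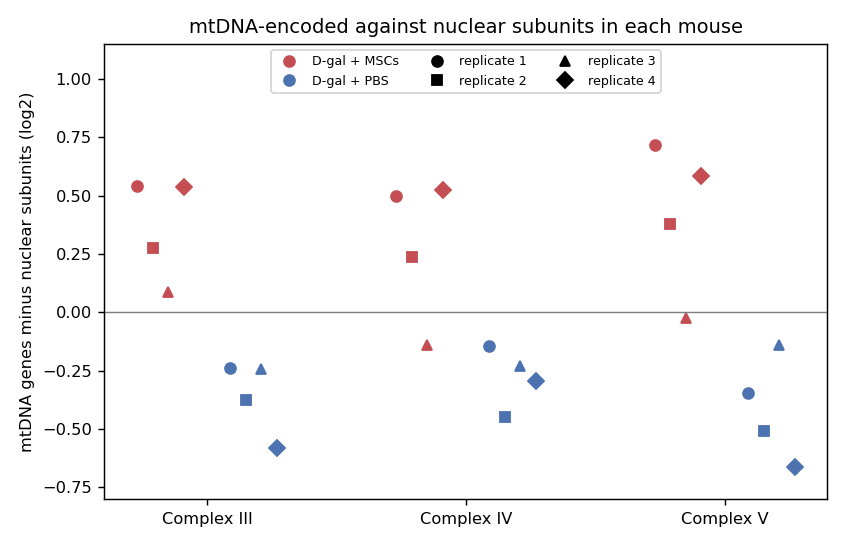
Score of the mtDNA-encoded subunits minus the score of the nuclear subunits of the same complex in each mouse (log2), D-gal + MSCs left and D-gal + PBS right. D-gal + MSCs mice lie above D-gal + PBS mice in complexes III and V; in complex IV the lowest D-gal + MSCs mouse (-0.142) meets the highest D-gal + PBS mouse (-0.144).

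Much the same order of the mice was seen in other nuclear genes. The 37 nuclear complex I subunits had a median log2 fold change of 0.25, with 35 positive and 0 past the thresholds, and scores of -0.27, -0.17, 0.29 and 0.59 in D-gal + MSCs mice, against -0.03, -0.40, -0.28 and 0.27 in D-gal + PBS mice. Short transcripts in general shared part of this order. Over all 198 genes with a main transcript under 700 nt, the median relative log2 CPM was -0.32, -0.24, 0.27 and 0.26 in D-gal + MSCs mice, against 0.13, -0.20, -0.21 and 0.30 in D-gal + PBS mice. As in the 60 genes, D-gal + MSCs replicates 3 and 4 and D-gal + PBS replicate 4 were high, but the highest mouse here was D-gal + PBS replicate 4 and the lowest D-gal + MSCs replicate 1. The 21 of the 60 genes in that class had scores of -0.35, -0.24, 0.45 and 0.57 in D-gal + MSCs mice, against -0.02, -0.40, -0.31 and 0.32 in D-gal + PBS mice. The median log2 fold change of this class was 0.22 for the 21 genes and -0.02 for all 198. The 18 of the 60 genes with a transcript of 1500 nt or more had a median of 0.29, against 0.01 for all genes of that class. Their scores were -0.16, -0.04, 0.16 and 0.53 in D-gal + MSCs mice, against -0.15, -0.29, -0.20 and 0.15 in D-gal + PBS mice, while all genes of that class stayed between -0.03 and 0.04 in every mouse. The part of transcript length in the result was not tested.

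Markers of fibre types and of other cells also moved between mice. In bulk muscle, fewer cells or fibres of a type and less RNA per cell cannot be told apart. The summed level of 10 genes of slow and oxidative fibres was 2759, 2330, 6148 and 11850 CPM in D-gal + MSCs mice, against 2160, 886, 1322 and 2383 CPM in D-gal + PBS mice, so the highest and the lowest mouse were the same as in the 60 genes. In these markers 3 of 10 were higher at the thresholds, Mb, Myl3 and Myoz2, 0 were lower, and Tnni1 and Myl2 were at 0 in some libraries. Mb, the oxygen store myoglobin, had 4834 ± 3205 CPM in D-gal + MSCs mice and 1550 ± 674 CPM in D-gal + PBS mice (SD, n = 4 each). Mb made up much of the sums above. All 10 markers were higher on average in D-gal + MSCs mice (median log2 fold change 3.19). Their score was 0.001, -1.39, 1.71 and 4.06 in D-gal + MSCs mice. In D-gal + PBS mice it was 0.81, -3.23, -0.23 and -1.72. By score the highest and lowest mouse were the same, but D-gal + PBS replicate 1 lay above D-gal + MSCs replicates 1 and 2. D-gal + PBS replicate 4 lay below all mice but D-gal + PBS replicate 2. The sum of 10 general skeletal muscle genes ranged from 84270 to 110700 CPM in D-gal + MSCs mice and from 108900 to 138400 CPM in D-gal + PBS mice, and 3 of the 10, the fast fibre genes Actn3, Mybpc2 and Pvalb, were lower at the thresholds. Of 8 adipocyte genes 7 were measured, with sums of 266 to 480 CPM in D-gal + MSCs mice and 273 to 662 CPM in D-gal + PBS mice. At the thresholds 0 passed, and Adipoq, Plin1, Cfd, Retn and Pck1 were at 0 in some libraries. Fabp4, at 345.5 CPM in D-gal + MSCs mice and 333.1 CPM in D-gal + PBS mice, made up much of these sums. It alone of the 7 had a positive log2 fold change, and their median was -2.495. The score of the 7 genes was 1.13, 1.01, -2.77 and -4.06 in D-gal + MSCs mice, against 0.17, 3.69, 0.14 and 0.70 in D-gal + PBS mice. D-gal + PBS replicate 2 was the highest mouse and D-gal + MSCs replicate 4 the lowest. The 3 measured brown adipocyte genes summed to at most 5.17 CPM in D-gal + MSCs mice and 4.50 CPM in D-gal + PBS mice, with 0 past the thresholds. At the same thresholds 1 of 5 erythroid genes, 2 of 8 macrophage genes and 3 of 7 fibroblast genes were lower, 2 of 7 endothelial genes and 1 of 6 nerve genes were higher, and 0 of 6 smooth muscle and pericyte genes passed. Of all genes, 3.06% were lower and 3.76% higher at the thresholds used for these marker lists. A positive log2 fold change was found in 0 of 5 erythroid, 1 of 8 macrophage, 0 of 7 fibroblast and 1 of 10 general muscle genes. It was found in 7 of 7 endothelial, 6 of 6 nerve and 4 of 6 smooth muscle and pericyte genes, against 49.5% of all genes. The median log2 fold change of the erythroid genes was -1.39. The part of these cell types in the levels of the 60 genes was not tested.

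**Figure D5:**
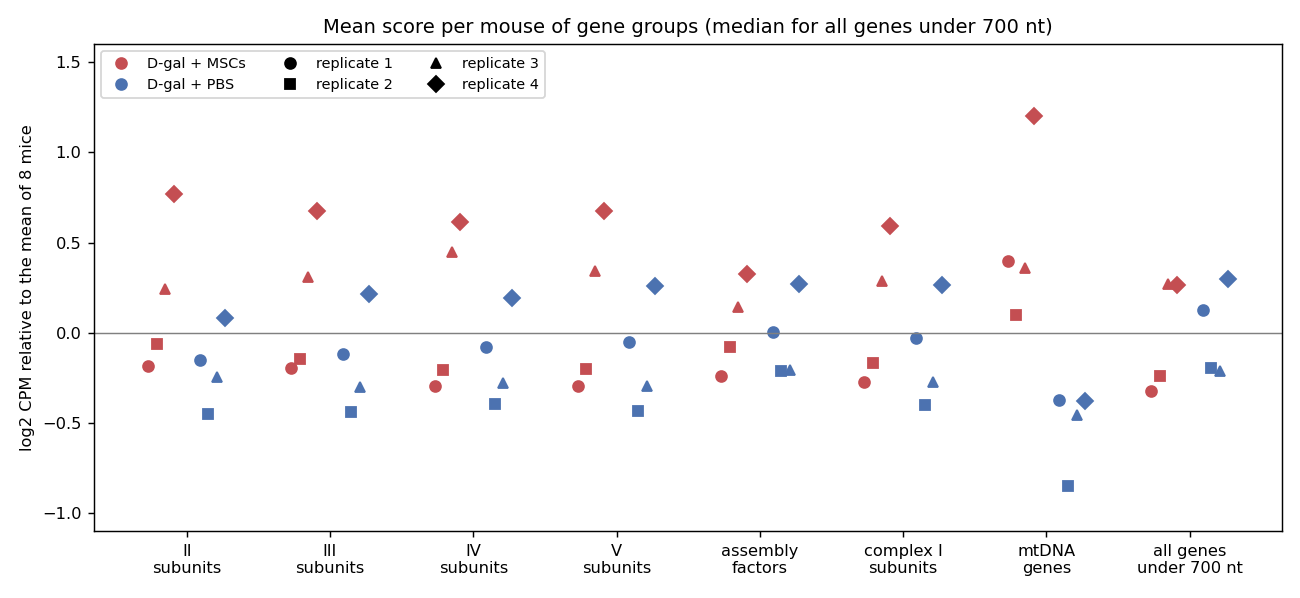
Score in each mouse of the subunits of each complex, of the assembly and related factors, of nuclear complex I subunits and of mtDNA protein genes, as mean log2 CPM relative to the mean of 8 mice, and the median of the same measure over all 198 genes under 700 nt. In the subunits of each complex, the assembly factors and complex I, D-gal + MSCs replicate 4 (red diamond) is the highest mouse and D-gal + PBS replicate 4 (blue diamond) stands above D-gal + MSCs replicates 1 and 2, while among all genes under 700 nt D-gal + PBS replicate 4 is the highest.

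Promoters were found for 47 of the 60 genes, in 51 windows of the length described above, some of which overlap. They were searched on both strands for 4 short motifs of factors known to act on genes of respiration. The NRF1 core GCATGCGC was in 7 of the 51 windows (13.7%), against 2.71% of 32851 windows over all genes. The ETS core CCGGAAGT, bound by GABP, was in 8 windows (15.7%), against 3.89%, and the YY1 core AAGATGGC in 6 (11.8%), against 2.75%. The ERR motif TCAAGGTC was in only 2 (3.92%), against 1.05%. The windows over all genes were not matched to the 51 for expression or base content. These matches describe letters, not binding. The 7 genes with the NRF1 core had a median log2 fold change of 0.22, and the other 40 with a promoter 0.24. Stretches of 30 bases around the core show that it lies before the gene start in 5 of the 7 genes, across the start in Uqcr11 and after it in Uqcrc1, and that in 4 of the 7 it is part of the palindrome GCGCATGCGC, where matches on the opposite strands overlap. The log2 fold changes of these genes ran from 0.03 for Atp5g2 to 0.62 for Sdhb. The stretches lie at chr4:140961206-140961235, plus strand for Sdhb, chr5:108434430-108434459, minus strand for Atp5k, chr9:108936668-108936697, plus strand for Uqcrc1, chr9:44920963-44920992, minus strand for Atp5l, chr10:80406807-80406836, minus strand for Uqcr11, chr5:115349101-115349130, minus strand for Cox6a1 and chr15:102671070-102671099, minus strand for Atp5g2 (GRCm38.p6), with the core in capitals.
Sdhb: aagcccagtggGCATGCGCcctacgggccg
Atp5k: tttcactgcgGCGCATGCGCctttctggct
Uqcrc1: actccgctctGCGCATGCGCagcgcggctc
Atp5l: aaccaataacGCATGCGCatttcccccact
Uqcr11: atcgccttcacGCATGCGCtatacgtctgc
Cox6a1: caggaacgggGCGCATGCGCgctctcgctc
Atp5g2: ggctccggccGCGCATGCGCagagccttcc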

How the data were processed

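The authors aligned the reads to GRCm39 with HISAT2 (version not given in the sources used here) and deposited 1 table of raw counts per gene for the 8 libraries. What counted the reads, with which annotation and strand setting, is not given there either. Counts were compared in R 4.3.3 with edgeR 4.0.16 (filterByExpr, which removed 0 genes, TMM factors, robust quasi-likelihood F test, group as the only term), with Benjamini-Hochberg adjustment over the 12171 genes. The standard error is the log2 fold change divided by the square root of F. Scores used a prior count of 2 and isoform ratios one of 0.5. Alternatives were DESeq2 1.42.0, limma-voom (limma 3.58.1), other scalings and filters, a replicate block and mice left out. The fits were tested on simulated data.

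The genes, the lists of markers and factors, the motifs and the alternatives were chosen with earlier results of these data known. Named genes were those at p under 0.05, the core and isoform genes, those with the highest and lowest fold change in each complex, and, in other lists, genes past the thresholds. All other members were added after their values were seen, so that each of the 60 was accounted for. Of the 60, 58 had a transcript length, from GENCODE vM21 by symbol. Promoters are from RefSeq. Protein sequences were planned for the isoform pairs and were not used here. P-values measure the spread between these 8 mice. Depth was 32772221 to 40057968 counts per library, so that counting error is small beside the spread between mice for genes with many counts. This does not hold for Cox4i2, whose lowest count was 116, and small gaps between its mice lie within counting error.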

Additional observations from a re-analysis of the deposited data

Results flagged for a closer look

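In 66 groups of 4 mice, each the levels of 1 gene or ratio in 1 group, 3 held a mouse far from the other mice of its group. Chance gives about 1 in 20 such groups, so 3 of 66 is near what chance gives. Atp5b was 2702 CPM in D-gal + PBS replicate 4, and 1983, 1971 and 2063 CPM in the other D-gal + PBS mice. Sdhaf3 was 23.1 CPM in the same mouse, and 16.5, 15.9 and 16.9 CPM in the others. Cox8a was 29.8 CPM in D-gal + PBS replicate 3, and 37.5, 36.5 and 36.1 CPM in the others.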

How the results depend on the processing

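The count of 0 genes at an adjusted p under 0.05 and the count of 0 lower genes kept under every alternative run. The count of 2 higher genes (Sdhb, Uqcrq) was 0 with library totals alone and 0 with D-gal + MSCs replicate 4 and D-gal + PBS replicate 2 left out together, and 0 to 10 with single mice left out. That pair is the highest and the lowest mouse in most of the 60 genes, so leaving it out shrinks the difference by construction. Under library totals alone the log2 fold change was -0.17 for Atp5g2, -0.066 for Cox6a1, -0.057 for Cox8a and -0.16 for Sdhaf3. With the same 2 mice left out it was -0.011 for Atp5c1, -0.14 for Atp5g2, -0.025 for Cox6a2, -0.0205 for Cox6b1, -0.067 for Cox7a2, -0.013 for Cox8b and -0.13 for Sdhaf3, and the isoform differences were -0.0775 for Cox6a2 over Cox6a1 and -0.11 for Cox8b over Cox8a. With single mice left out, the values ran from -0.074 to 0.16 for Sdhaf3, from -0.12 to 0.15 for Atp5g2, from -0.22 to 0.28 for Cox6a1, from -0.032 to 0.26 for Cox8a, from -0.29 to 0.03 for Uqcc2 and from -0.0014 to 0.28 for Cox8b over Cox8a. The cause was not tested. Without mitochondrially encoded genes and with library totals the median over the 60 genes was 0.28, against 0.028 over all genes. Of the 60, 56 were positive (93.3%), against 54.8% of all genes. There 13 of the 60 (21.7%) had an unadjusted p under 0.05, against 9.85% of all genes, and 2 were higher at the thresholds (3.33%, against 3.79%).

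No label pairs mice by replicate number. The correlation of same-numbered mice was -0.003, 0.16, 0.10 and 0.22, and 2 of 4 D-gal + MSCs mice matched their own number best. With a replicate block, 19 of the 60 genes (31.7%) had an unadjusted p under 0.05, against 14.1% of all genes, 2 were higher at the thresholds (3.33%, against 4% of all genes), 0 passed the adjusted threshold, and the median was 0.23. Dropping the filter changed no value, since it removed 0 genes.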
